A study of Mus musculus with 18 samples.

Results

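The contractile genes of peritubular myoid cells were followed in cultured mouse testes. The 10 genes, chosen by symbol, were Acta2, Myh11, Tagln, Cnn1, Des, Myl9, Actg2, Mylk, Tpm2 and Lmod1. All 10 were found among the 22657 genes of the table, and all 10 were among the 15790 genes with at least 1 FPKM in 3 or more libraries, which were the genes tested. FPKM is a gene's fragment count scaled to the length of its transcript and to the total of its library, so levels can be set side by side between genes. The 18 libraries were bulk RNA-seq of ICR mouse testes kept for 48 h in culture medium with fetal bovine serum, 3 libraries in each of 6 groups. The groups A0, A10 and A50 came from mice without busulfan, and their testes were cultured with 0, 10 or 50 μg/mL of alginate oligosaccharide (AOS), short sugar chains from brown algae. The groups B0, BA10 and BA50 were cultured with the same AOS concentrations, and their mice had received busulfan, a DNA alkylating agent toxic to spermatogonia, at 40 μg per g body weight. The injection was given at 3 weeks of age, and the testes were collected 2 weeks later. Several testes were cultured per treatment and the culture was repeated 3 times. Whether the 3 libraries of a group are those repeats is not given in the sources used here, so the p-values measure the spread between these libraries, which may be technical.

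Peritubular myoid cells are flat, smooth muscle-like cells that ring the seminiferous tubule, and their contraction moves fluid and released sperm along it. In smooth muscle, calcium bound to calmodulin activates myosin light chain kinase, which phosphorylates the regulatory light chain of myosin, and myosin then pulls on filaments of smooth muscle actin. Tropomyosin, calponin and transgelin lie along these actin filaments, leiomodin starts new ones, and desmin filaments tie the apparatus together. The smooth muscle of blood vessels uses the same genes, so their level in a whole testis belongs to no single cell type. In these bulk libraries fewer cells of a type and less RNA per cell cannot be told apart.

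Markers of other contractile cells were checked first. Of 11 skeletal muscle markers, 10 were below the filter in these libraries, with 1.33 FPKM as their highest value, and the skeletal actin Acta1 lay between 0.02 and 0.21 FPKM. Of 11 markers of vascular smooth muscle and pericytes, 10 were tested, and Mcam, a surface protein of these cells, had 38.7 ± 9.55 FPKM (SD, n = 3) in A0. Ptch1, the hedgehog receptor, had 3.94 to 8.01 FPKM over the 18 libraries. Gli1, a hedgehog target, stayed at or below 0.73 FPKM and was not tested. Ptch1 and Gli1 were named as markers fixed for peritubular cells and not by their level.

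Some libraries stood apart from their groups. The third A10 library correlated least with its own group, with a mean r of 0.935 over the genes tested, and the highest such value in any library was 0.987. The 13 Sertoli cell genes in the table summed to 1774 FPKM in that library and to 3633 to 7566 FPKM in the 17 others. The B0 libraries carried genes of fat and of duct epithelium: the 9 fat cell genes summed to 230.2 to 956 FPKM in B0 and to 54.3 to 169 FPKM in the other groups, and the 10 epithelial genes in the table to 115 to 317 FPKM in B0 and to 42.7 to 74.7 FPKM in the others. Endothelial genes were also highest in B0. The 10 of them summed to 162 to 188 FPKM there and to 58.4 to 145 FPKM in the other groups. The number of reads behind the libraries is unknown.

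**Figure D1:**
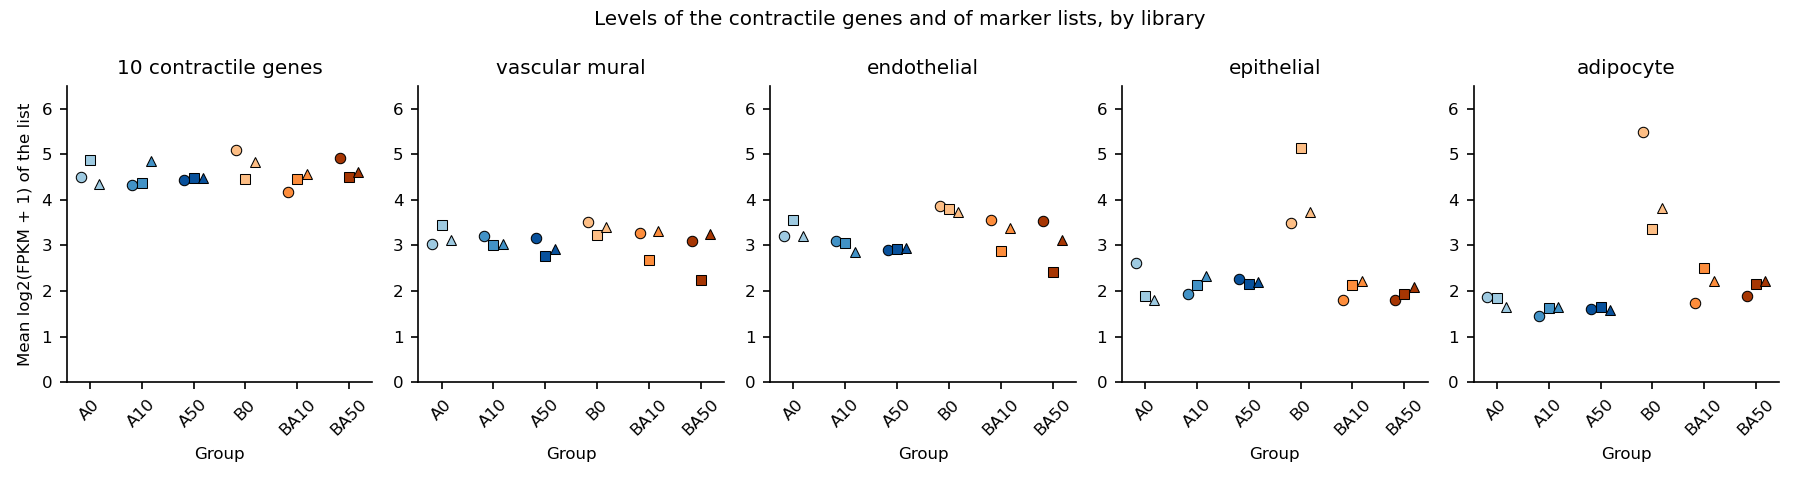
Mean log2(FPKM + 1) of the 10 contractile genes and of 4 marker lists (vertical axis) in each library, by group (horizontal axis); circles, squares and triangles are libraries 1, 2 and 3. The endothelial, epithelial and adipocyte lists were higher in the 3 B0 libraries than in every other library. The contractile genes of B0 (4.45 to 5.09) overlapped with those of A0 (4.34 to 4.87).

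Smooth muscle genes are known as targets of serum response factor, which binds the CArG box (CC, then 6 letters of A or T, then GG), with myocardin as its partner. The promoter table from RefSeq (GRCm38.p6, 250 bases before to 50 bases after a start) held 7 of the 10 genes, without Myh11, Tagln and Actg2. The CArG box reads the same on both strands. It was found once in the 7 promoters, in Myl9, and in 1.63% of the 32851 promoters of the table. With 1 G or C allowed among the 6 inner letters, a limit chosen after the sequences were seen, Acta2 had 2 matches and Myl9 had 1 more, and 9.98% of all promoters had at least 1 match of either kind. The 4 windows of 30 bases shown here hold every match of either kind in the 7 promoters, with the box in capitals.
Myl9, chr2:156775293-156775322, plus strand, box from 161 to 152 bases before the start: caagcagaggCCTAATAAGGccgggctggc
Myl9, chr2:156775355-156775384, plus strand, box from 99 to 90 bases before the start: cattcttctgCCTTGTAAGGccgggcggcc
Acta2, chr19:34255438-34255467, minus strand, box from 84 to 75 bases before the start: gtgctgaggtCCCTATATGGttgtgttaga
Acta2, chr19:34255388-34255417, minus strand, box from 34 to 25 bases before the start: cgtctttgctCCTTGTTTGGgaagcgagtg
The starts are those of the promoter table. For Acta2 that start and both windows lie inside the gene span from GENCODE M21 given below. A match is a description of the sequence and not a measured binding site. Srf, which encodes the factor that binds the box, was present at 11.5 to 17.1 FPKM over the 18 libraries. Myocd, which encodes its partner myocardin, lay between 0.12 and 0.42 FPKM, below the filter. Srf and Myocd were named for their role and not by their level. The myocardin-related Mrtfa and Mrtfb passed the filter, and these were named after their values were seen.

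The levels of the 10 genes spread widely. Tagln (chr9:45929619-45936058 in GRCm38, minus strand), which encodes the actin-bundling protein transgelin, was the highest with a mean of 161.7 FPKM over the 18 libraries, followed by Myl9 with 67.4, Acta2 with 52.6, Actg2 with 51.2 and Tpm2 with 35.8 FPKM. Mylk had a mean of 23.0 FPKM, Des 11.5, Myh11 9.42, Cnn1 4.61 and Lmod1 3.25 FPKM. In sum the 10 genes ranged from 296 to 634 FPKM over the libraries, with a median of 387 FPKM. Tagln made up 22.4% to 55.9% of that sum and Acta2 7.30% to 20.9%.

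**Figure D2:**
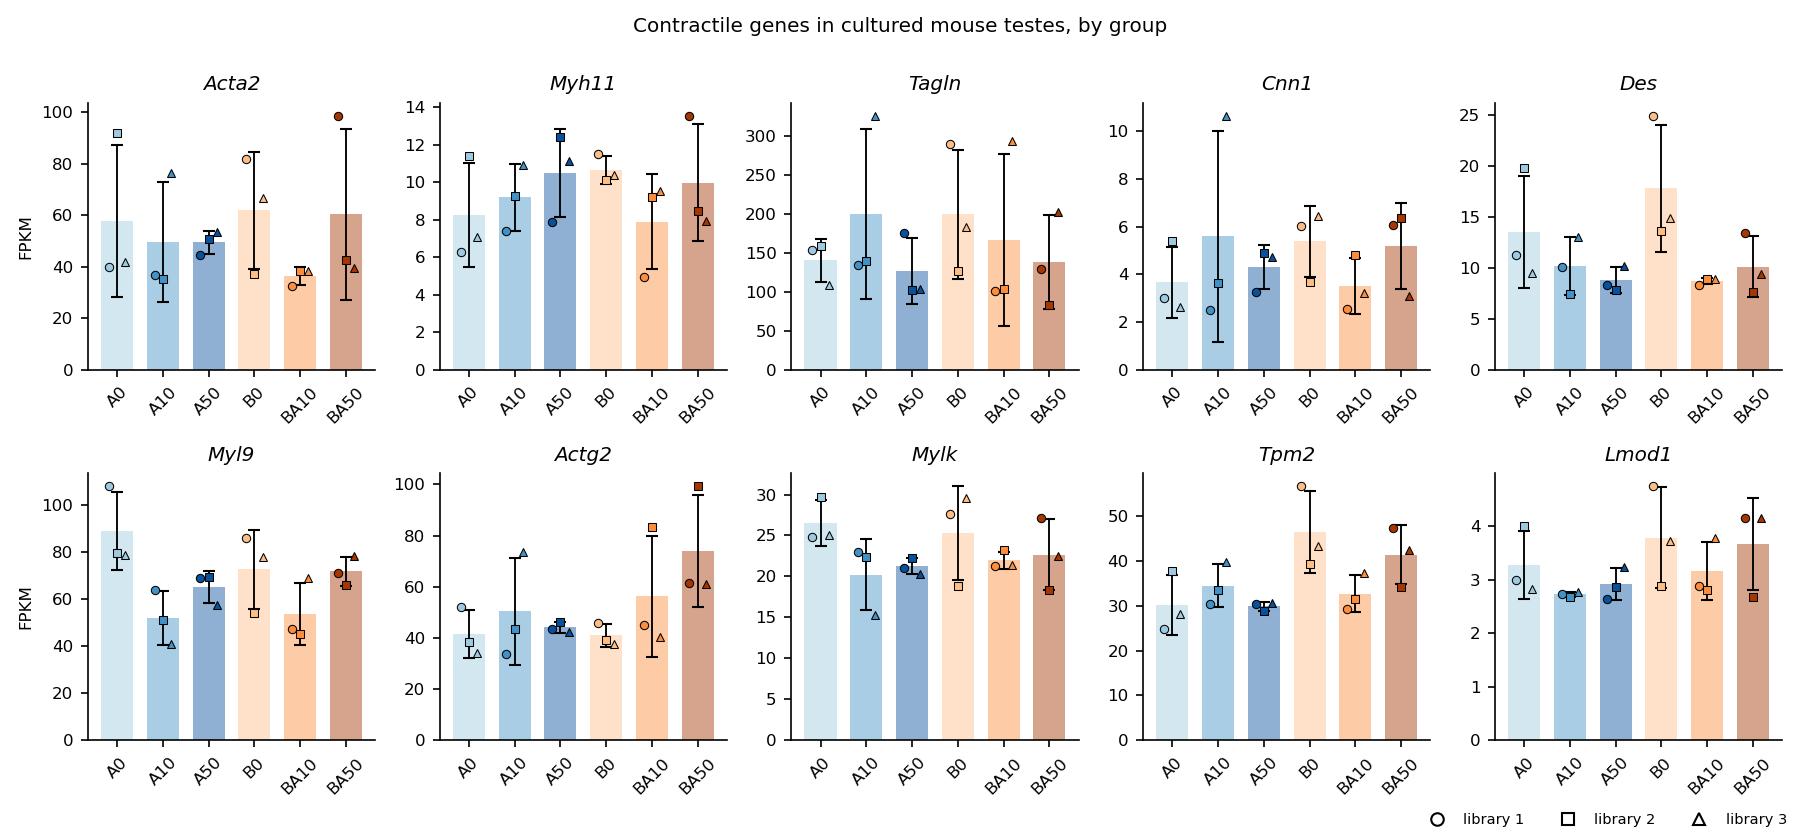
FPKM (vertical axis, from 0) of the 10 contractile genes in the 6 groups (horizontal axis); bars are the means of 3 libraries, error bars the SD, and circles, squares and triangles libraries 1, 2 and 3. Acta2, Tagln and Cnn1 differed more between libraries of a group than between group means, and Tpm2 was higher in all 3 B0 libraries than in any A0 library.

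Libraries of the same group often differed more than the groups did. The pooled SD between libraries of a group on the log2(FPKM + 1) scale was 0.62 for Tagln, 0.53 for Acta2 and 0.51 for Cnn1, which are higher than in 95.8%, 94.0% and 93.4% of the genes tested. It was lowest for Lmod1, at 0.20. The median over the 10 genes was 0.35, against 0.21 over all genes tested. The share of the variance that lay between the 6 groups ran from 17.4% for Cnn1 to 61.7% for Tpm2.

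Acta2 (chr19:34241090-34255590, minus strand) encodes smooth muscle alpha actin, the most used marker of peritubular myoid cells. Its levels were 39.8, 91.8 and 42.0 FPKM in the 3 A0 libraries, 36.9, 35.2 and 76.4 in A10, 44.5, 50.7 and 53.3 in A50, 81.6, 37.1 and 66.8 in B0, 32.5, 38.5 and 38.3 in BA10, and 98.7, 42.7 and 39.6 in BA50. In A0, A10 and BA50 a single library stood far above the other two, and the groups overlapped except that the BA10 libraries lay below all those of A0, A50 and BA50. By group mean the order was B0, BA50, A0, A10, A50 and BA10, from 61.9 ± 22.7 down to 36.5 ± 3.40 FPKM (SD, n = 3). No neighbours in that order differed beyond their spread, apart from A50 (49.5 ± 4.50) and BA10, whose libraries did not overlap.

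Actg2 (chr6:83512905-83536265, minus strand) encodes smooth muscle gamma actin, known from gut muscle and, in rodents, also from haploid germ cells. It was measured at 52.2, 38.5 and 34.1 FPKM in A0, 33.9, 43.5 and 73.8 in A10, 43.6, 46.3 and 42.4 in A50, 46.0, 39.3 and 37.6 in B0, 44.9, 83.5 and 40.4 in BA10, and 61.4, 99.4 and 61.2 in BA50. The highest 3 libraries were the second BA50, the second BA10 and the third A10 library, which ranked 9, 13 and 4 of the 18 for Acta2. The coding sequences of Acta2 and Actg2 are 84.4% identical over 1128 aligned bases, and of the stretches of 50 bases in their longest transcripts (GENCODE M21) 0.353% in Acta2 and 0 in Actg2 occur in another gene, so sequence shared over whole reads of that length was rare.

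Across the 18 libraries Actg2 followed the spermatid genes. Its Pearson r with the mean of 12 spermatid markers was 0.94 and Spearman's rho 0.89, and r was 0.92 within the 9 libraries without busulfan, 0.94 within the 9 with busulfan and 0.87 without the 2 libraries farthest from the median of the list. The same r was -0.21 for Acta2 and -0.16 for the mean of the 10 standardised genes. Acta2 and Actg2 had r = 0.070 with each other. Of the 14920 other genes tested with a mean of at least 1 FPKM, those most like Actg2 over the 18 libraries were Morn3, Clpb and 1700003F12Rik, with r of 0.98, 0.97 and 0.97, and these 3 were chosen after their values were seen. The 12 spermatid markers summed to 11576 FPKM in the second BA50 and 7212 in the second BA10 library, the highest of the 18, and to 5359 FPKM in the third A10 library, below the 5417 and 6584 FPKM of the other BA50 libraries. These correlations are descriptions over 18 libraries that share the total of reads to which FPKM is scaled, and the pattern was noticed in the data.

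**Figure D3:**
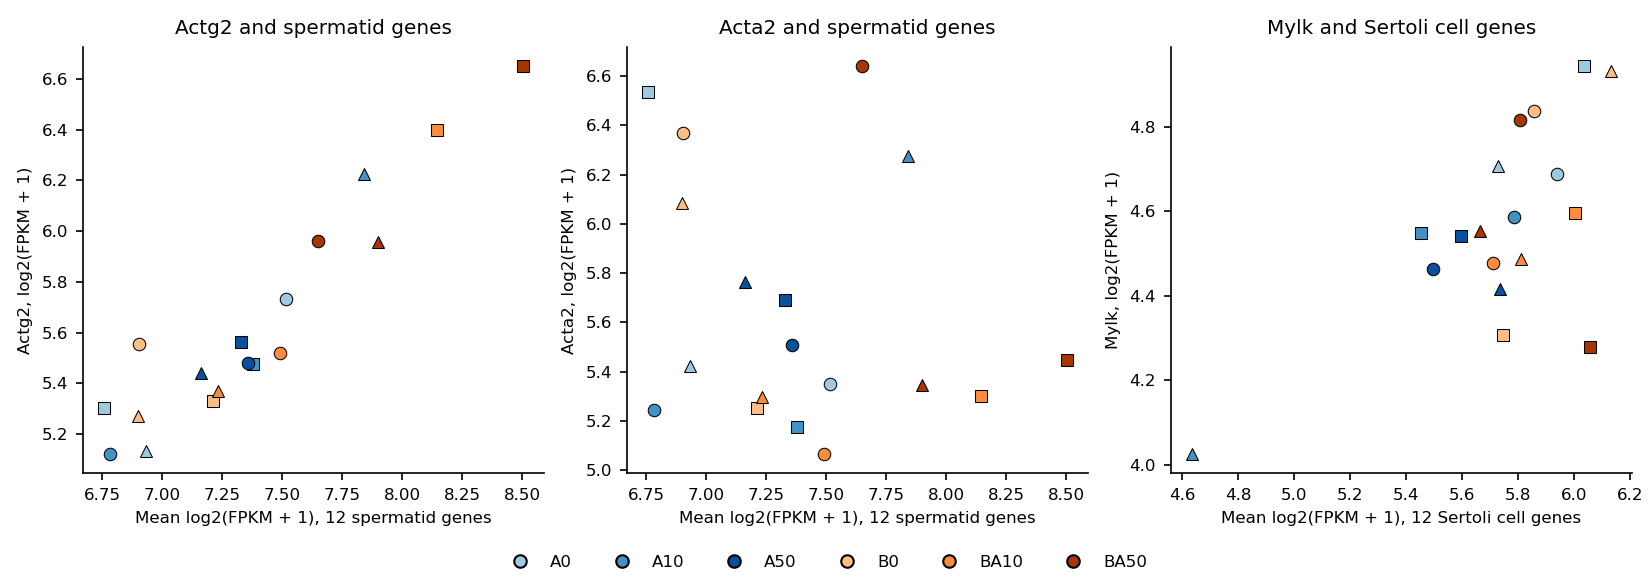
Log2(FPKM + 1) of Actg2, Acta2 and Mylk (vertical axes) against the mean log2(FPKM + 1) of 12 spermatid or 12 Sertoli cell genes (horizontal axes); points are libraries, coloured by group, with circles, squares and triangles for libraries 1, 2 and 3. Actg2 is higher along the spermatid axis (r = 0.94), Acta2 does not (r = -0.21), and the lowest point of Mylk is the third A10 library.

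Myosin was represented by its heavy chain, its regulatory light chain and the kinase of that chain. Myh11 (chr16:14194535-14291372, minus strand), the smooth muscle myosin heavy chain, had group means between 7.90 ± 2.54 FPKM (BA10) and 10.7 ± 0.745 FPKM (B0; SD, n = 3), and its 18 values ran from 4.97 to 13.6 FPKM. Myl9 (chr2:156775420-156781658, plus strand), the regulatory light chain, was measured at 108, 79.7 and 78.9 FPKM in A0, 63.9, 51.2 and 40.8 in A10, 68.8, 69.4 and 57.5 in A50, 85.9, 53.9 and 78.1 in B0, 47.5, 45.2 and 69.1 in BA10, and 71.1, 66.1 and 78.3 in BA50. All A0 libraries lay above those of A10 and A50, and the B0 libraries overlapped with both other busulfan groups.

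Mylk (chr16:34745210-35002420, plus strand), the light chain kinase, had 24.8, 29.8 and 25.1 FPKM in A0, 23.0, 22.4 and 15.3 in A10, 21.1, 22.3 and 20.4 in A50, 27.6, 18.8 and 29.5 in B0, 21.3, 23.2 and 21.4 in BA10, and 27.2, 18.4 and 22.5 in BA50. The A0 libraries were above those of A10 and A50 here too, and the lowest of all 18 was the third A10 library. Myl9 and Mylk had r = 0.65 with each other over the 18 libraries. Their r with the mean of 12 Sertoli cell genes over the 18 libraries was 0.52 for Myl9 and 0.66 for Mylk, and it was 0.22 and 0.25 without the 2 libraries farthest from the median of the list. Within the 9 libraries without busulfan it was 0.81 and 0.91, or 0.66 and 0.74 without the third A10 library, a setting added after the data were seen. Within the 9 with busulfan it was 0.082 and 0.27. Some other lists lay closer over the 18 libraries. With 17 smooth muscle regulators r was 0.63 for Myl9 and 0.86 for Mylk, or 0.45 and 0.72 without the 2 farthest libraries. With 9 macrophage genes it was 0.56 and 0.69, or 0.59 and 0.47 without the 2 farthest.

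The genes of the thin filament took different courses. Tagln was measured at 154, 159 and 108 FPKM in A0, 134, 139.6 and 326 in A10, 175, 102 and 103 in A50, 289, 126 and 182 in B0, 102, 104 and 293 in BA10, and 129, 82.6 and 202 in BA50. A single library stood far above the other two in each of A10 and BA10, and every group overlapped with every other. Among the genes most like Tagln over the 18 libraries were Cryab, a small heat shock protein, and Nos2, the inducible nitric oxide synthase, each with an r of 0.91, and these were chosen after their values were seen. Cnn1 (chr9:22099216-22109630, plus strand), calponin, was low, at 2.51 to 10.7 FPKM, and its highest value was also that of the third A10 library.

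Tpm2 (chr4:43514711-43523765, minus strand), beta tropomyosin, was measured at 24.8, 37.6 and 28.1 FPKM in A0, 30.3, 33.4 and 39.7 in A10, 30.4, 28.8 and 30.6 in A50, 56.7, 39.2 and 43.2 in B0, 29.4, 31.6 and 37.2 in BA10, and 47.4, 34.3 and 42.4 in BA50. The B0 libraries were all above those of A0 and of BA10, and the BA50 libraries were all above those of A50. Lmod1 (chr1:135324807-135368065, plus strand), leiomodin, stayed between 2.64 and 4.75 FPKM, with the 3 A10 libraries at 2.68 to 2.77 FPKM. Des (chr1:75360329-75368579, plus strand), the intermediate filament protein desmin, had 11.2, 19.8 and 9.51 FPKM in A0, 10.1, 7.42 and 13.0 in A10, 8.36, 7.83 and 10.2 in A50, 24.9, 13.6 and 14.9 in B0, 8.33, 8.89 and 8.88 in BA10, and 13.4, 7.58 and 9.37 in BA50. All 3 B0 libraries exceeded all of BA10 and BA50, while B0 and A0 overlapped.

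Pairs of the 10 genes mostly varied together between libraries. Of the 45 pairs, 37 had an r above 0 over the 18 libraries, with a median of 0.38. The highest were Tpm2 with Lmod1 (r = 0.76), Acta2 with Des (0.75), Acta2 with Cnn1 (0.74) and Acta2 with Myh11 (0.72). After the group means were taken out, these 4 values were 0.84, 0.86, 0.77 and 0.74, so the likeness was between libraries of a group as well. Actg2 stood apart, with a median r of -0.099 to the 9 others, and the lowest pair was Actg2 with Mylk at -0.40. Such values were not computed for pairs of other genes, so whether these pairs differ from them was not tested. The first B0 library was among the highest 3 of the 18 libraries for 8 of the 10 genes, the second A0, the third B0 and the first BA50 library each for 4, and the first BA10 library was among the lowest 3 for 5.

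**Figure D4:**
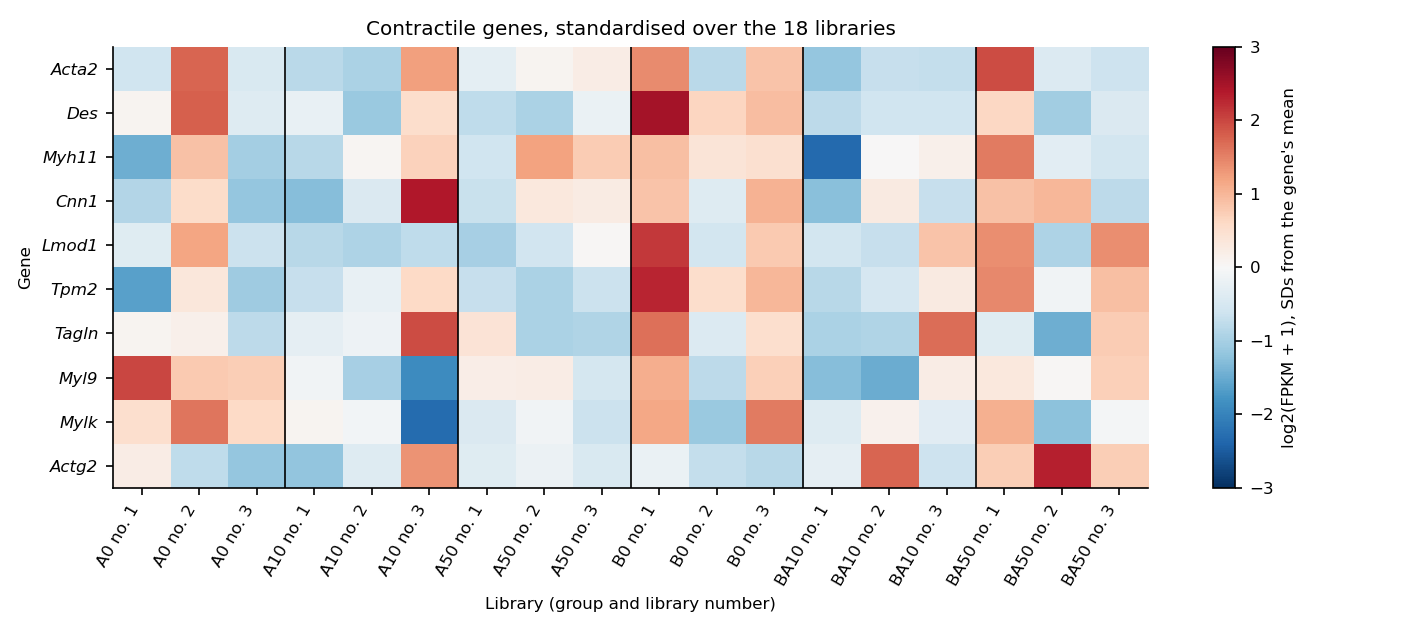
Log2(FPKM + 1) of the 10 genes (rows), standardised per gene, in the 18 libraries (columns, 3 a group between black lines); red is above and blue below the gene's mean, in SDs. The first B0 library is among the highest 3 for 8 of the 10 genes, and Actg2 is reddest in the second BA50 library.

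Outside the 10 genes, the 5 whose pattern was most like the mean of the standardised genes were Hspb7 (r = 0.87), Flcn (0.86), Dysf (0.83), Kctd10 (0.82) and Nnmt (0.81), among 14920 genes over 18 libraries. Hspb7 is a small heat shock protein of muscle, and Dysf encodes dysferlin, which takes part in the repair of muscle membranes. Hspb7 ran from 12.1 to 40.8 FPKM and was highest in the first B0 library, as were Flcn and Dysf. By Spearman's rho, Hspb7 (0.73) and Kctd10 (0.81) were among the 5 highest, and Flcn (0.71), Dysf (0.66) and Nnmt (0.52) were not.

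The next comparison asked whether busulfan changed the contractile genes. At the limits used for a call, an adjusted p of at most 0.001 and a log2 change of at least 1 in limma with Benjamini-Hochberg adjustment over all 15790 genes, none of the 10 was called in the mean of the 3 busulfan comparisons at matched AOS, where 3.61% of all genes were. At an adjusted p under 0.05 without a fold limit Tpm2 alone passed, where 38.1% of all genes did. Over the 10 genes 1 had an unadjusted p under 0.05, and 47.4% of all genes did. The 9 libraries with and the 9 without busulfan did not overlap for 0 of the 10 genes and for 10.2% of all genes. The median log2 change of the 10 genes was 0.078, and 8 of 10 were above 0, beside a median of 0.012 and 51.5% above 0 over all genes tested.

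Tpm2 was 1.27-fold higher with busulfan by the ratio of means, 40.1 ± 8.47 against 31.5 ± 4.70 FPKM (SD, n = 9 each). Its log2 change was 0.33 (SE 0.098, 95% interval 0.12 to 0.54, adjusted p = 0.0168, limma), and an exact two-sided permutation test over the 8000 divisions within AOS concentrations gave p = 0.0195. At single AOS concentrations the values were 0.61 (SE 0.17, adjusted p = 0.0262) in B0 against A0, -0.072 (SE 0.17, adjusted p = 0.792) in BA10 against A10, and 0.44 (SE 0.17, adjusted p = 0.0844) in BA50 against A50, all from limma. The differences between these changes did not pass, with adjusted p of 0.910 for 10 and 0.975 for 50 μg/mL against no AOS in limma. Without the groups cultured without AOS it was 0.19 (SE 0.12, adjusted p = 0.247, limma), a comparison added after the data were seen in which none of the 10 genes was called and 3.84% of all genes were. The r of Tpm2 with the mean of 9 fat cell genes was 0.70 over the 18 libraries. It was 0.69 within the 9 with busulfan, -0.056 within the 9 without, and 0.38 without the 2 libraries farthest from the median of that list. With the 10 endothelial genes, also highest in B0, it was 0.52 over the 18 libraries and 0.45 without the 2 farthest. With 34 other genes of the contractile apparatus it was 0.64 over the 18 libraries and 0.41 without the 2 farthest. Within the 9 libraries with busulfan that r was 0.82, and within the 9 without it was -0.044. With 11 peritubular genes outside the apparatus it was 0.44 over the 18 libraries and 0.69 without the 2 farthest. The part of the fat, epithelial and endothelial genes in the result was not tested.

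For the 9 other genes the intervals show what size of change these libraries could hold. Acta2 changed by -0.018 on the log2 scale with busulfan (SE 0.23, 95% interval -0.51 to 0.47, adjusted p = 0.959, limma), which spans 0.702-fold to 1.39-fold on the scale of FPKM + 1. The interval was -0.30 to 0.34 for Myh11, -0.51 to 0.64 for Tagln, -0.38 to 0.57 for Cnn1, -0.21 to 0.46 for Des, -0.29 to 0.22 for Myl9, -0.18 to 0.26 for Mylk and -0.023 to 0.38 for Lmod1. For Actg2 the log2 change was 0.28 with an interval of -0.079 to 0.64. A log2 change of 1 in either direction lay outside all of these intervals, while smaller changes within them were not excluded. The exact permutation p of the 9 genes ranged from 0.06925 (Lmod1) to 0.962 (Acta2).

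**Figure D5:**
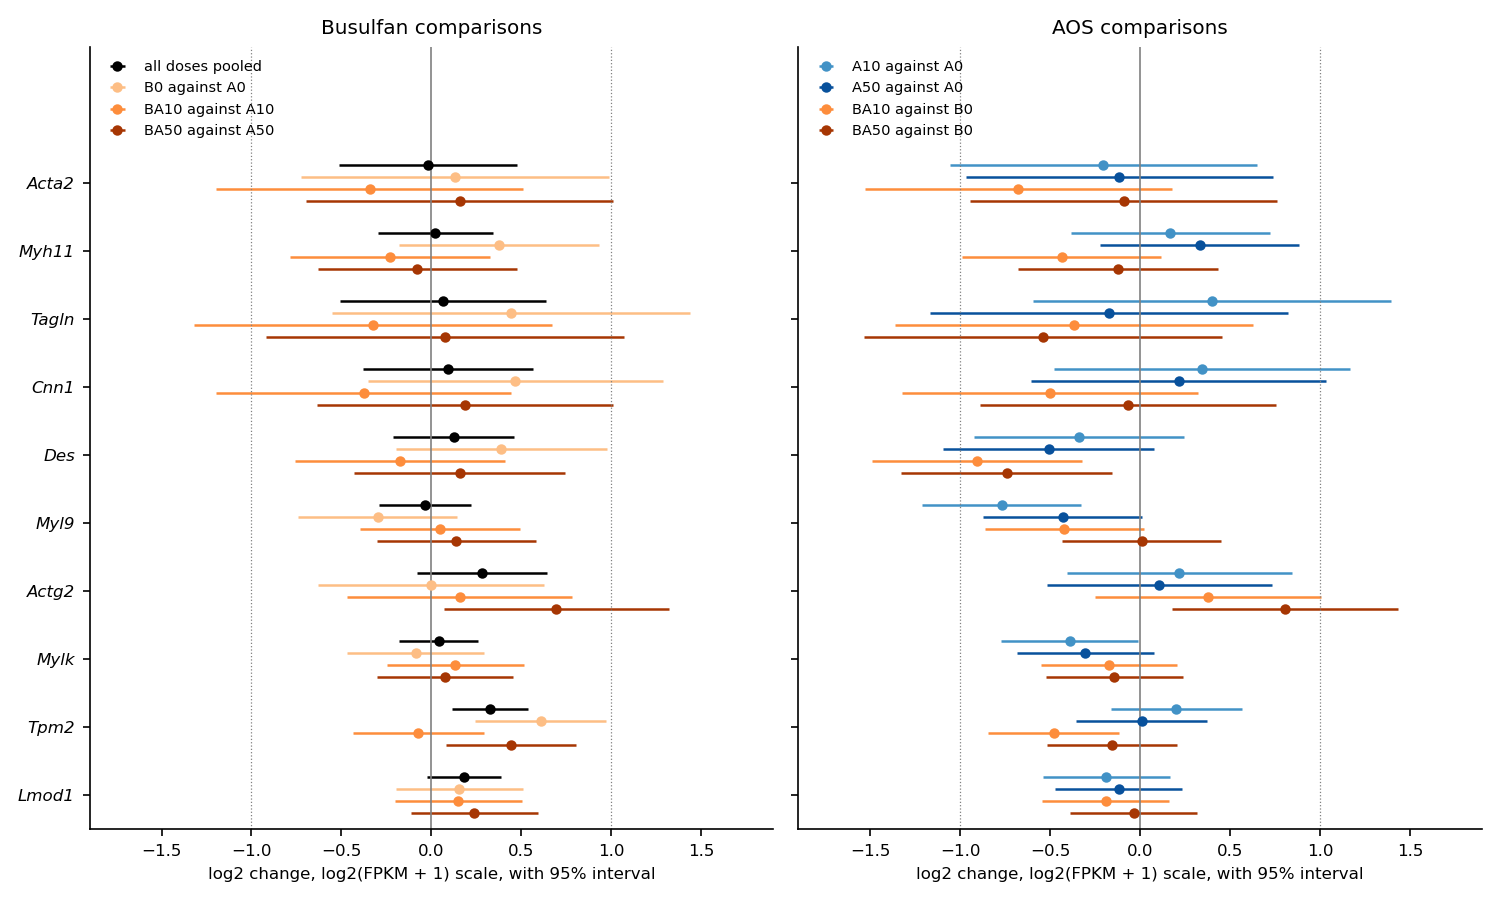
Log2 change on the log2(FPKM + 1) scale with its 95% interval from limma (horizontal axes) for the 10 genes (vertical axis) in the busulfan comparisons (left) and the AOS comparisons (right); dotted lines mark -1 and 1. Most intervals include 0, and the pooled busulfan interval of Tpm2, 0.12 to 0.54, does not.

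Within single AOS concentrations the busulfan groups rarely separated. In B0 against A0 no gene of the 10 was called (2.54% of all genes were), Tpm2 alone had an adjusted p under 0.05 (13.8% of all genes) and an unadjusted one (24.9% of all genes), and Tpm2 was the 1 gene whose groups did not overlap (33.2% of all genes). In BA10 against A10 none was called (3.01% of all genes), none had an adjusted p under 0.05 (18.9%) or an unadjusted one in limma (32.9%), and the libraries did not overlap for Lmod1 alone (31.2% of all genes), with a log2 change of 0.15 (SE 0.17, adjusted p = 0.556, limma). In BA50 against A50 none was called (3.39% of all genes) or had an adjusted p under 0.05 (19.9%), and 2 had an unadjusted one in limma (32.3%). There Actg2 had a log2 change of 0.70 (SE 0.29, adjusted p = 0.115, limma), with 74.0 ± 22.0 against 44.1 ± 2.00 FPKM (SD, n = 3), and Actg2 and Tpm2 were the 2 genes whose groups did not overlap (41.7% of all genes). The summed spermatid genes, beside which Actg2 moved, were 5417 to 11576 FPKM in BA50 and 3499 to 4443 FPKM in A50, and their part in the result was not tested. With 3 libraries against 3 an exact two-sided permutation test cannot give a p below 0.1, and 14 of the 70 tests of a gene in a pair of groups reached it.

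The AOS comparisons asked whether culture with AOS moved the same genes. Without busulfan none of the 10 was called at 10 or 50 μg/mL, and 0% of all genes were, nor did any gene have an adjusted p under 0.05 in limma. In A10 against A0 an unadjusted p under 0.05 was found for 2 of the 10 genes and for 15.2% of all genes. These were the light chain and its kinase: Myl9 was lower in A10 with 52.0 ± 11.6 against 88.9 ± 16.6 FPKM (SD, n = 3; log2 change -0.77, SE 0.21, adjusted p = 0.322, limma), and Mylk with 20.2 ± 4.29 against 26.5 ± 2.78 FPKM (log2 change -0.39, SE 0.18, adjusted p = 0.323, limma). Without the third A10 library the log2 changes were -0.61 for Myl9 and -0.21 for Mylk, each with an adjusted p of 0.985 in limma. Myl9, Mylk and Lmod1 were the 3 genes whose A10 and A0 libraries did not overlap, against 20.1% of all genes. In A50 against A0 an unadjusted p under 0.05 was found for 0 of the 10 genes and for 15.6% of all genes, and the 2 genes that did not overlap were again Myl9 (log2 change -0.43) and Mylk (-0.31), against 40.8% of all genes. These comparisons share the A0 libraries. The mean log2 level of the Sertoli list was 5.29 ± 0.592 in A10, 5.61 ± 0.121 in A50 and 5.90 ± 0.158 in A0 (SD, n = 3). For the macrophage list it was 4.30 ± 0.640, 4.71 ± 0.157 and 5.22 ± 0.149 in the same order of groups. For the smooth muscle regulators it was 2.96 ± 0.208, 3.03 ± 0.0423 and 3.23 ± 0.0859. The part of these lists in the lower Myl9 and Mylk values was not tested.

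After busulfan, 0 of the 10 genes were called in BA10 or BA50 against B0 (0% of all genes), and none had an adjusted p under 0.05 in limma (0.0253% of all genes in BA10 and 0.095% in BA50). In each of them 2 genes had an unadjusted p under 0.05, against 5.05% and 24.3% of all genes. Des was lower in both, with 8.70 ± 0.320 FPKM in BA10 and 10.1 ± 2.98 in BA50 against 17.8 ± 6.21 in B0 (SD, n = 3). Its log2 changes were -0.91 (SE 0.27, adjusted p = 0.749) and -0.74 (SE 0.27, adjusted p = 0.137) in limma. Tpm2 was lower in BA10 (log2 change -0.48, SE 0.17, adjusted p = 0.749, limma), and Actg2 was higher in BA50 (0.80, SE 0.29, adjusted p = 0.136, limma). The libraries did not overlap for Myh11, Des and Tpm2 in BA10 (11.4% of all genes) and for Des and Actg2 in BA50 (24.6% of all genes). These comparisons share the B0 libraries, which also carried the fat, epithelial and endothelial genes. The r between Des and the 9 fat cell genes was 0.67 over the 18 libraries and 0.19 without the 2 farthest. It was 0.69 and 0.57 for the 10 endothelial genes, and 0.61 and 0.62 for the 10 vascular mural genes. For 34 other genes of the contractile apparatus it was 0.68 and 0.47. The part of those genes in the Des values was not tested.

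The median log2 change of the 10 genes was -0.011 in A10 and -0.12 in A50 against A0, and -0.43 in BA10 and -0.11 in BA50 against B0, beside -0.058, -0.064, -0.026 and -0.041 over all genes tested. The difference between the AOS change with and without busulfan passed no limit for any of the 10 genes. At 10 μg/mL it had an unadjusted p under 0.05 for Tpm2 (difference -0.68, SE 0.24, adjusted p = 0.910, limma), 1 of 10 genes against 3.97% of all genes, and at 50 μg/mL for 0 of 10 genes against 6.28% of all genes.

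Other genes of the contractile apparatus and its anchoring gave a wider view of busulfan. Of 34 tested, 13 were higher and 3 lower at an adjusted p under 0.05, beside 13.3% higher and 24.8% lower among all genes tested, and the median log2 change was 0.16. Of the 3 with the highest level, cytoplasmic beta actin (Actb, log2 change 0.21, SE 0.059, adjusted p = 0.0112) and the essential light chain Myl6 (0.34, SE 0.064, adjusted p = 7.1e-04) were higher in limma, and cytoplasmic gamma actin (Actg1) had a change of 0.019 (SE 0.091, adjusted p = 0.885). Relatives of the 10 genes that are not confined to smooth muscle were among the 13, all at an adjusted p under 0.05 in limma and chosen here after their values were seen: the non-muscle myosin heavy chain Myh9 (0.32), the tropomyosins Tpm1 (0.31) and Tpm4 (0.46), the calponins Cnn2 (0.31) and Cnn3 (0.42) and the light chain Myl12a (0.28). Whether these changes differed from those of Myh11, Cnn1 and Myl9 was not tested.

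The non-muscle myosin heavy chain Myh10, also chosen after its values were seen, fell by 0.86 on the log2 scale (SE 0.050, adjusted p = 4.2e-09, limma), the lowest change of the 34 genes. It had 11.2 to 15.3 FPKM in the 9 libraries without busulfan and 6.07 to 7.62 FPKM in the 9 with busulfan, with no overlap. Of the summed FPKM of Myh11 and Myh10 the smooth muscle form made up 41.3% in A0 and 60.9% in B0 by group means. Myh11 itself did not pass the test. Beside the more abundant Myh9 (57.6 FPKM in A0 and 68.6 in B0) the share of Myh11 was 12.5% in A0 and 13.5% in B0. That share was 14.2% in A10 and 10.9% in BA10, and 17.5% in A50 and 12.2% in BA50.

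Genes that set contraction and the smooth muscle programme were next. Of 21 tested receptors, channels and kinases of contraction, 2 were higher and 3 lower at an adjusted p under 0.05 with busulfan, with a median log2 change of 0.082, while 38.1% of all genes passed that limit in either direction. The 3 highest were the GTPase Rhoa (0.17, SE 0.070, adjusted p = 0.0684), the calcium pump Atp2a2 (-0.096, SE 0.062, adjusted p = 0.237) and the kinase Rock2 (0.17, SE 0.079, adjusted p = 0.0953) in limma. Of 17 regulators, 2 were higher and 2 lower, also beside 38.1% of all genes, and the 3 highest, Tgfb1 (0.22), Tgfbr1 (0.047) and Klf4 (0.24), did not pass, with adjusted p of 0.0858, 0.736 and 0.179 in limma. Mrtfa, named above, was lower (log2 change -0.21, SE 0.046, adjusted p = 0.00204, limma). Mrtfb did not pass (0.035, SE 0.072, adjusted p = 0.728, limma). In the AOS comparisons no gene of these lists had an adjusted p under 0.05 in A10 or A50 against A0, where 0% of all genes did.

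Of 11 tested peritubular genes outside the contractile apparatus, 3 were higher and 1 lower with busulfan at an adjusted p under 0.05. Among all genes tested 13.3% were higher and 24.8% lower, or 38.1% in either direction. Fibronectin (Fn1), a matrix protein that peritubular cells secrete, was 166 ± 17.9 FPKM in B0 and 79.6 ± 24.7 FPKM in A0 (SD, n = 3), with a pooled log2 change of 0.86 (SE 0.15, adjusted p = 2.7e-04, limma). Aebp1, a matrix-associated protein, had a change of 0.40 (SE 0.15, adjusted p = 0.0496) and the receptor Pdgfra 0.018 (SE 0.18, adjusted p = 0.946) in limma.

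Lists of other cells gave the frame for these values in the pooled busulfan comparison. Among all genes tested 13.3% were higher and 24.8% lower at an adjusted p under 0.05 in limma. The median log2 change was -0.014 for 10 vascular mural genes (1 higher and 0 lower at an adjusted p under 0.05), 0.26 for 10 endothelial genes (3 and 0), 0.30 for 12 Sertoli cell genes (2 and 0) and 0.34 for 8 Leydig cell genes (2 and 0). It was -0.23 for 9 fibroblast genes (0 and 0), 0.053 for 9 macrophage genes (0 and 0), 0.66 for 8 epithelial genes (4 and 1) and 1.18 for 9 fat cell genes (8 and 0). Without B0 and A0 the median was -0.13 for the epithelial genes (0 and 1) and 0.45 for the fat cell genes (2 and 0). In that comparison 33.8% of all genes passed the limit in either direction. Among germ cells it was -0.58 for 11 spermatogonium genes (1 and 7), -1.46 for 12 spermatocyte genes (0 and 11) and 0.38 for 12 spermatid genes (1 and 0). The spermatocyte gene Sycp3, a protein of the meiotic chromosome axis, was 10.8 ± 2.23 FPKM in B0 and 113 ± 3.54 FPKM in A0 (SD, n = 3). In the same libraries Acta2 was 61.9 ± 22.7 and 57.8 ± 29.4 FPKM (SD, n = 3), within the spread of its libraries.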

How the data were processed

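Poly(A) RNA of 18 cultured testis samples was sequenced on an Illumina HiSeq instrument. The authors deposited 1 table of FPKM per gene and sample with 2 decimals. The submitters' processing notes name HISAT, Bowtie2, RSEM and GRCm38.p5, whereas the paper's supplementary methods describe SOAPaligner and RPKM, so which of them made the table is not settled. The series' design text gives AOS in mg/kg body weight, and the labels and the paper give μg/mL, which was used. Read depth is unknown. Groups and library numbers came from the sample titles, and 0 sample columns were left unmapped. Gene numbers were matched to symbols through RefSeq (GRCm38.p6), and gene positions came from GENCODE M21.

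All 18 libraries entered 1 fit of log2(FPKM + 1) in limma 3.58.1 (R 4.3.3; lmFit, eBayes with trend) with 1 coefficient per group and 12 residual degrees of freedom. Fold changes on this scale understate those of low genes. The fit was tested on simulated data. Single genes were also tested with exact permutation tests over samples in Python 3.11.15. The 10 genes, the gene lists and the tests were chosen with earlier results of these data known. Genes named were the 10, the 3 tested genes of highest mean FPKM in each list (given only where a result turns on them), and the 5 most like the 10 by Pearson r. Other genes were named for their role, as markers, or after their values were seen, as said beside them. Some items are not reported here. Whether library numbers pair groups was checked by correlating deviations from group means: of 7 pairs of groups, only B0 and BA50 had every r over 0.1 (0.56, 0.42 and 0.14). The library number as a block, fewer groups, another pseudocount, other filters and scalings, other eBayes settings, other limits and each library left out were tried as alternatives, and 4 settings and the looser CArG box were added after the data were seen.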

Additional observations from a re-analysis of the deposited data

How the results depend on the processing

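No gene of the 10 was called under any alternative fit. With an adjusted p under 0.05 and no fold limit, 1 gene (Tpm2) passed in the pooled busulfan comparison and 1 in B0 against A0. Over the 1940 values of single genes under alternatives, 43 had an adjusted p under 0.05, of which 41 were Tpm2 and 2 Lmod1. For Tpm2 the pooled adjusted p ranged from 0.00484 to 0.839 and passed 0.05 in 28 of 30 alternatives, with 0.839 when centred on the Sertoli list (log2 change 0.062) and 0.247 without B0 and A0. In B0 against A0 it ranged from 0.00759 to 0.642 and passed in 11 of 17, with adjusted p of 0.139 without A0 library 1, 0.0951 without A0 library 3, 0.129 without B0 library 1 and 0.0521 without B0 library 3, 0.104 with only the groups compared and 0.642 when centred on the Sertoli list. In BA50 against A50 its adjusted p was 0.0417 without BA50 library 2.

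Centring each library on the Sertoli list moved the median log2 change of the 10 genes to -0.19 in the pooled busulfan comparison, -0.67 in BA10 against A10, -0.077 in BA50 against A50, 0.60 in A10 and 0.17 in A50 against A0, and -1.06 and -0.29 in the differences of AOS changes at 10 and 50 μg/mL. It moved all genes alike, to a median of -0.25 in the pooled comparison, and the 10 genes stayed 0.066 above that median as before. Without the third A10 and second BA50 libraries the median was 0.33 in BA50 against A50, -0.18 in A10 against A0 and -0.23 in the difference at 10 μg/mL.

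With each library left out in turn, the median log2 change ranged from 0.027 to 0.18 in the pooled busulfan comparison, 0.073 (without B0 library 1) to 0.53 (without A0 library 2) in B0 against A0, -0.18 to 0.022 in BA10 against A10, 0.070 to 0.33 in BA50 against A50, -0.18 (without A10 library 3) to 0.18 (without A0 library 2) in A10 against A0, -0.24 to 0.031 in A50 against A0, -0.61 to -0.25 in BA10 against B0, -0.27 to 0.0041 in BA50 against B0, -0.84 to -0.23 in the difference at 10 μg/mL and -0.34 to 0.12 in the difference at 50 μg/mL. The sign changed in BA10 against A10, A10 and A50 against A0, BA50 against B0 and the difference at 50 μg/mL. Without B0 library 1 the Des change in BA50 against B0 was -0.49. The replicate block, with library numbers as a term, left the pooled Tpm2 change at 0.33 with an adjusted p of 0.0261 and changed no call, and the block in B0 and BA50 alone called 0 genes, with Des at -0.74 (adjusted p = 0.187, limma). Read depth is unknown, so no limit of detection was set.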
